A study of Homo sapiens with 19 samples.

Results

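The 9 cystatins CST1, CST2, CST3, CST4, CST5, CST6, CST7, CSTA and CSTB were examined among the 33382 genes measured by RNA-seq in 19 samples of H1, an established human embryonic stem cell line. The family was chosen on the measured level of CST1, which was far higher in PRC2-null cells than in WT H1 and at late days without EED than with it. Levels are given in TPM, a length-corrected share of all transcripts in a sample. CST1 is therefore described without a test wherever PRC2-null cells are set against cells that keep PRC2 or against each other, and the other members entered by name as its relatives. WT H1 cells had 2 samples, as did each of 5 lines made from H1 with CRISPR/Cas9 and a donor that removed a functional domain. These were the SUZ12-/- H1 and EED-/- H1 lines, the single knockouts EZH2-/- H1 and EZH1-/- H1, and the EZH2-/-/EZH1-/- H1 line, which lacks both enzymes. The EZH2-/-/EZH1-/- H1 line was derived from the EZH2-/- H1 line. A sixth engineered line, H1-EED-/-/EED-OE, carries a lentiviral EED transgene switched on by doxycycline (DOX) and lacks the endogenous gene, and it had 1 sample with DOX (+DOX) and 1 sample at each of days 8, 12, 16, 20, 24 and 28 after DOX was taken away (-DOX). Cells of all lines were kept in the same pluripotency medium on matrigel. By its western blots, the study found the histone mark H3K27me3 lost from cells without EED, without SUZ12 or without both EZH enzymes, and retained in the single EZH knockouts and in WT H1. The former 3 lines are called PRC2-null here.

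Samples of a knockout line differ in clone or passage name in their labels, and nothing says that the WT H1 samples came from separate cultures, so p-values measure the spread between these samples, which may be technical. Between 19117 and 23012 genes had a TPM above 0 in a sample, and read depth is unknown, so no counting interval is given. The time points have no replicates. The +DOX sample has no time label, although its title carries a mark that may point to day 28. When it was collected beside the -DOX days is therefore not known. Transcripts of the targeted genes were still present in their own knockout lines, for example EED at 14.2 and 22.4 TPM in EED-/- H1 against 17.3 and 22.0 TPM in WT H1, and since a TPM value covers the gene outside the deleted domain it does not check the labels. In the H1-EED-/-/EED-OE cells, EED stood at 108.5 TPM with DOX and between 12.6 and 31.6 TPM without it.

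Cystatins are reversible inhibitors of papain-like cysteine proteases, the cathepsins, which they block by wedging into the active site. CSTA and CSTB (cystatins A and B, or stefins) are type 1 cystatins, which lack a signal peptide and act inside the cell. The other members are type 2 cystatins, which are secreted. CST3 encodes cystatin C, made by most tissues, while CST1, CST2 and CST4 encode the cystatins SN, SA and S of saliva and tears, CST5 encodes cystatin D of saliva, CST6 encodes cystatin E/M of skin, and CST7 encodes cystatin F of leukocytes. PRC2 is the complex of EED, SUZ12 and EZH1 or EZH2 that methylates histone H3 at lysine 27 and keeps developmental genes silent in embryonic stem cells.

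Of the 9 members, 6 lie on chromosome 20 in GRCh38, and 5 of those, CST3, CST4, CST1, CST2 and CST5 in this order, follow each other on the minus strand within 253 kb, each with 3 exons. CST1 spans chr20:23747562-23751268, CST4 spans chr20:23685640-23689038, CST2 spans chr20:23823769-23826729, CST3 spans chr20:23626706-23638473 and CST5 spans chr20:23875934-23879748. CST7 is on the same chromosome, 1198 kb from the start of CST1 on the plus strand. CST6 is on chromosome 11, CSTA on chromosome 3 and CSTB on chromosome 21.

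CST1, CST4 and CST2 are close copies of each other, which bears on every value given for them. The coding sequence of CST1 is 92.7% identical to that of CST4 and 91.3% identical to that of CST2, compared with 72.1% for CST3 and 73.4% for CST5. The longest stretch that CST1 and CST4 share without a difference has 152 bases, from coding base 233 to 384, and runs from exon 2 into exon 3 (chr20:23747858-23749125 in CST1 and chr20:23685936-23687197 in CST4, both with an intron between). It is set here beside the same stretch of the other cystatins of the cluster, on the coding strand, with bases that differ from CST1 in capitals. CST2 differs at 5 of the 152 bases, CST5 at 28 and CST3 at 30.
CST1: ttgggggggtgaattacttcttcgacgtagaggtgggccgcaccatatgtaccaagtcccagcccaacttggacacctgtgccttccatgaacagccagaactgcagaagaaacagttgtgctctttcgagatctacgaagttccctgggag
CST4: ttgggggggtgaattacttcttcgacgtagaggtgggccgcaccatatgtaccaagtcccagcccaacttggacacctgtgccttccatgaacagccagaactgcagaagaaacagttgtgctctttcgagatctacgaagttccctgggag
CST2: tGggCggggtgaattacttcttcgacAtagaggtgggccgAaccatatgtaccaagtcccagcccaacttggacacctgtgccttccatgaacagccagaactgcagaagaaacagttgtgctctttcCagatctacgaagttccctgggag
CST5: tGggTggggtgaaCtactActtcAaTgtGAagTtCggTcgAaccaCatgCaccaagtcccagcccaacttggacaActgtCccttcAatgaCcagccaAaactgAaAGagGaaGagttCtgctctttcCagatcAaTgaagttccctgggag
CST3: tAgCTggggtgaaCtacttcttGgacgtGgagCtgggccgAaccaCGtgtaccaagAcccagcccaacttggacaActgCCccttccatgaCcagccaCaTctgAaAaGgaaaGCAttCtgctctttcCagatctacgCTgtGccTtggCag

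Reads from such a stretch can be assigned to CST1 or CST4 only by estimation. Of all windows of 75 bases in the CST1 transcript, 13.9% occur letter for letter in another gene, and the share is the same in CST4. It is 1.93% in CST2 and 0 in the other 6 members. The values of CST4 and CST2 are therefore uncertain where CST1 is high, and how far CST1 reads entered them was not tested.

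CST1 was low in all lines that retain H3K27me3 and ranked between the 3rd and the 447th gene by TPM in PRC2-null samples. WT H1 cells had 1.35 and 2.60 TPM, EZH1-/- H1 cells 3.90 and 3.28 TPM, and EZH2-/- H1 cells 0.41 and 0.63 TPM. The EED-/- H1 samples had 2171 and 7977 TPM, the SUZ12-/- H1 samples 274 and 300.4 TPM, and the EZH2-/-/EZH1-/- H1 samples 8377 and 5629.9 TPM. The lowest PRC2-null sample thus lies far above the highest sample of the other lines, at 3.90 TPM. Ranked by TPM, CST1 was the 3rd gene of all in EED-/- H1 replicate 2 and in EZH2-/-/EZH1-/- H1 replicate 1, the 27th in EED-/- H1 replicate 1 and the 447th and 396th in the SUZ12-/- H1 samples. The mean ± SD (n = 2) was 1.98 ± 0.884 TPM in WT H1, 5074 ± 4105 TPM in EED-/- H1, 287 ± 18.8 TPM in SUZ12-/- H1 and 7004 ± 1943 TPM in EZH2-/-/EZH1-/- H1. The EED-/- H1 samples differed 3.67-fold from each other, compared with 1.10-fold in SUZ12-/- H1 and 1.49-fold in EZH2-/-/EZH1-/- H1. In a bulk sample, fewer cells that make CST1 and less CST1 RNA per cell cannot be told apart.

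**Figure D1:**
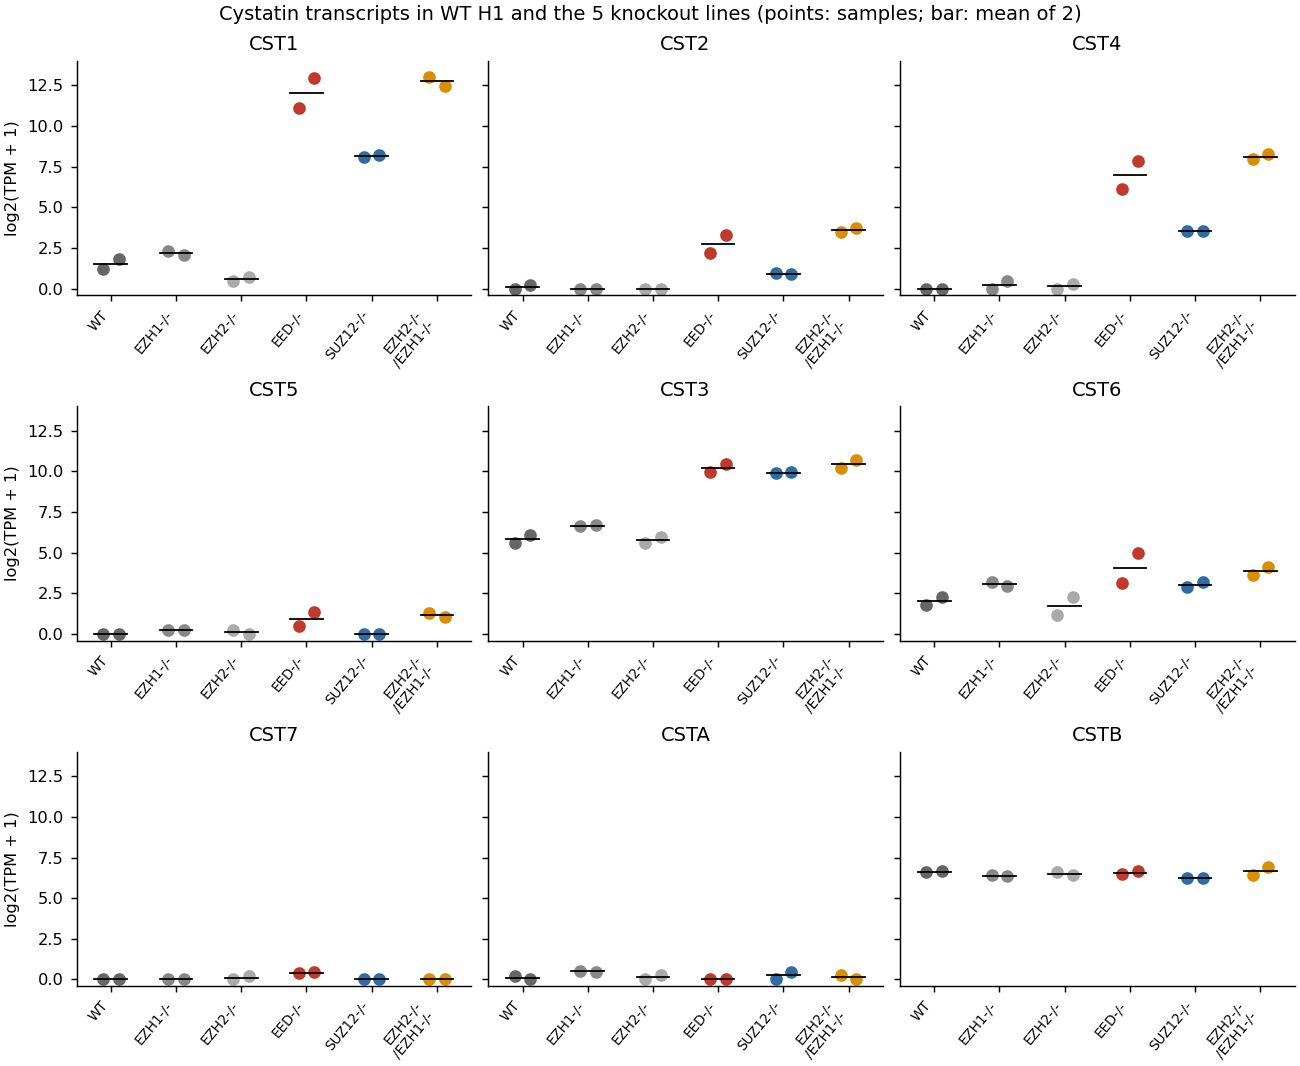
Each panel plots 1 cystatin in log2(TPM + 1) by line, from WT H1 to EZH2-/-/EZH1-/- H1, with a point for each of 12 samples and a bar at the mean of 2. CST1, CST2, CST4 and CST3 stand higher in the 3 PRC2-null lines (coloured), CST1 and CST4 least so in SUZ12-/- H1, whereas CSTB stays between 73.5 and 121.9 TPM and CST7 and CSTA stay under 0.5 TPM in these 12 samples.

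Expression was compared with limma on log2(TPM + 1), in which a gene is called where its difference is at least 3-fold and its p, adjusted by Benjamini and Hochberg over 19100 genes, is no more than 1%, and differences below are given on that scale, where low values are pulled towards 0. The median of all genes tested against WT H1 was shifted by 0.22 in SUZ12-/- H1, by 0.36 in EED-/- H1 and by 0.19 in EZH2-/-/EZH1-/- H1. Of the 8 members other than CST1, 6 passed the filter on low values, and CST2, CST4 and CST5 passed it only through PRC2-null samples, so the counts below say nothing for the family as a whole. Against WT H1, 4 members were called higher in EED-/- H1 (CST2, CST4, CST3 and CST6), 2 in SUZ12-/- H1 (CST4 and CST3) and 3 in EZH2-/-/EZH1-/- H1 (CST2, CST4 and CST3), and none was called lower. These comparisons share the WT H1 samples. Over all genes tested, 16.2% were called higher and 6.09% lower in EED-/- H1, 14.5% and 5.21% in SUZ12-/- H1, and 11.6% and 5.66% in EZH2-/-/EZH1-/- H1. CST1 chose the family by these same contrasts, so nothing is read from the member counts against those shares.

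CST4, the cystatin S gene next to CST1, was listed at 0 in both WT H1 samples. It reached at most 0.39 TPM in the EZH1-/- H1 samples and 0.21 TPM in the EZH2-/- H1 samples. EED-/- H1 samples had 70.5 and 231.6 TPM, SUZ12-/- H1 samples 10.7 and 10.8 TPM, and EZH2-/-/EZH1-/- H1 samples 252 and 306 TPM. No sample of a PRC2-null line overlapped a sample of the other lines. The difference from WT H1 was 8.12 ± 0.45 (SE) in EZH2-/-/EZH1-/- H1, 7.01 ± 0.45 in EED-/- H1 and 3.55 ± 0.45 in SUZ12-/- H1, with adjusted p of 6.35e-07, 9.33e-07 and 9.35e-05. CST4 passed the filter through its high samples, and with no filter on low values these p were 4.48e-06, 5.69e-06 and 3e-04. CST4 shares sequence with CST1, which chose the family by these contrasts, so the p are not evidence apart from CST1.

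CST2, the cystatin SA gene, was the rarest of these 3 close copies. It was at 0 in 5 of the 6 samples that retain H3K27me3 and at 0.16 TPM in the other, WT H1 replicate 2. EED-/- H1 samples had 3.66 and 8.74 TPM, SUZ12-/- H1 samples 0.95 and 0.84 TPM, and EZH2-/-/EZH1-/- H1 samples 10.2 and 12.0 TPM. The difference from WT H1 was 2.65 ± 0.33 (SE) in EED-/- H1 (adjusted p = 7.23e-05) and 3.49 ± 0.33 in EZH2-/-/EZH1-/- H1 (adjusted p = 1.6e-05), and it was 0.81 ± 0.33 in SUZ12-/- H1, which did not pass (adjusted p = 0.0614). CST2 passed the filter only through PRC2-null samples, and with no filter on low values the p in EED-/- H1 and EZH2-/-/EZH1-/- H1 were 0.000191 and 5.38e-05. Like CST4 it shares sequence with CST1, so these p are not evidence apart from CST1.

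The 3 copies kept a similar order of abundance in the samples where CST1 was high. In the 6 PRC2-null samples, CST4 amounted to between 2.90% and 5.44% of the CST1 level in TPM, and CST2 to between 0.110% and 0.347%. EZH2-/-/EZH1-/- H1 replicate 2 held the highest CST4 share, at 5.44%, while the other 5 samples lay between 2.90% and 3.90%.

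CST3, the widely expressed cystatin C gene, was present in every sample and rose in each PRC2-null line. WT H1 cells had 47.1 and 67.2 TPM, EZH1-/- H1 cells 99.0 and 102.6 TPM, and EZH2-/- H1 cells 48.3 and 62.5 TPM. In EED-/- H1 samples it was at 1006 and 1399.6 TPM, in SUZ12-/- H1 samples at 939 and 1010.2 TPM, and in EZH2-/-/EZH1-/- H1 samples at 1169 and 1638 TPM. The lowest of these is above the highest sample of the other lines, and unlike CST1 the 3 PRC2-null lines lie close together. The difference from WT H1 was 4.37 ± 0.24 (SE), 20.7-fold, in EED-/- H1 (adjusted p = 3.78e-07), 4.09 ± 0.24, 17.0-fold, in SUZ12-/- H1 (adjusted p = 7.01e-07) and 4.60 ± 0.24, 24.2-fold, in EZH2-/-/EZH1-/- H1 (adjusted p = 4.59e-07). No window of 75 bases of CST3 occurs in another gene, so its values do not rest on reads shared with CST1.

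The remaining members were low or steady. CST6, the skin cystatin E/M, had 2.41 and 3.77 TPM in WT H1 and 7.98 and 30.3 TPM in EED-/- H1, a called difference of 2.06 ± 0.54 (SE, adjusted p = 0.00837). That call rests on EED-/- H1 replicate 2: without it the difference was 1.15 (adjusted p = 0.0754), and without WT H1 replicate 1 or replicate 2 the adjusted p was 0.0637 and 0.0252. In EZH2-/-/EZH1-/- H1, CST6 had 11.6 and 16.5 TPM and missed the threshold (1.88 ± 0.54, adjusted p = 0.0156), and in SUZ12-/- H1 it had 6.31 and 8.01 TPM (1.01 ± 0.54, adjusted p = 0.148).

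CST5, the outermost gene of the cluster, did not exceed 1.97 TPM in any of the 19 samples. Its difference from WT H1 was 0.91 ± 0.29 (SE) in EED-/- H1 and 1.17 ± 0.29 in EZH2-/-/EZH1-/- H1, both under the 3-fold limit. It was listed at 0 in both SUZ12-/- H1 samples. CST5 passed the filter only through PRC2-null samples, so these differences are a description given without a p. CST7, the leukocyte cystatin F, was at 0 in 16 of 19 samples and reached 0.36 TPM at most. CSTA, known from squamous epithelium, was at 0 in 10 of 19 samples and reached 0.98 TPM, in the +DOX sample. Both were under the filter and were not tested.

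CSTB, the ubiquitous intracellular cystatin B, had 95.9 and 100.6 TPM in WT H1, 89.2 and 99.1 TPM in EED-/- H1, 75.5 and 73.5 TPM in SUZ12-/- H1, and 83.9 and 121.9 TPM in EZH2-/-/EZH1-/- H1. The groups overlap except for SUZ12-/- H1, whose samples are the lowest of the 12. None of its differences from WT H1 passed, with -0.06 ± 0.19 (SE, adjusted p = 0.807) in EED-/- H1, -0.40 ± 0.19 (adjusted p = 0.119) in SUZ12-/- H1 and 0.04 ± 0.19 (adjusted p = 0.884) in EZH2-/-/EZH1-/- H1.

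**Figure D2:**
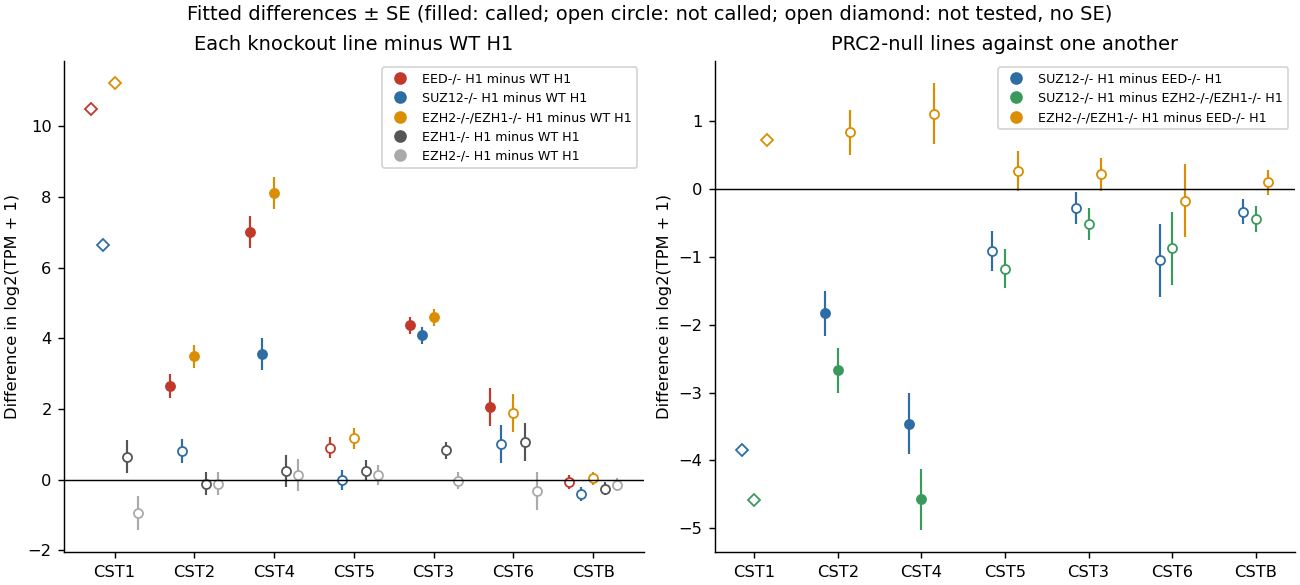
Fitted differences in log2(TPM + 1) with their SE for the 7 cystatins that passed the filter, on the left for each knockout line minus WT H1 and on the right for the PRC2-null lines against each other. CST3 lies between 4.09 and 4.60 in all 3 PRC2-null lines, while CST2 and CST4 are called lower in SUZ12-/- H1 than in the other PRC2-null lines; diamonds for CST1 are described without a test.

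Loss of a single EZH enzyme was examined in the same fit, on contrasts that did not choose the family, so CST1 was tested here. None of the 7 members tested was called in EZH1-/- H1 or in EZH2-/- H1 against WT H1, where limma called 0.0995% and 0% of all genes. At an unadjusted p under 0.05, 1 of 7 members (CST3) passed in EZH1-/- H1 beside 16.0% of all genes, and 0 of 7 passed in EZH2-/- H1 beside 5.81%. CST1 differed from WT H1 by 0.65 ± 0.47 (SE, adjusted p = 0.571) in EZH1-/- H1 and by -0.94 ± 0.47 (adjusted p = 0.904) in EZH2-/- H1. CST3 differed by 0.83 ± 0.24 (adjusted p = 0.135) in EZH1-/- H1, where both samples lie above both WT H1 samples, and by -0.03 ± 0.24 (adjusted p = 1) in EZH2-/- H1.

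The PRC2-null lines were then compared with each other. Their differentiation was gradual by the study's account, and no harvest time is given for them. The gene lost, the clone and the time since knockout therefore cannot be told apart here. The fit shares 1 spread over all lines, while replicates differed in tightness over well-expressed genes. Their median absolute log2 difference was 0.089 in SUZ12-/- H1, 0.246 in EED-/- H1 and 0.462 in EZH2-/-/EZH1-/- H1. CST1 chose the family by its level in these lines, so its differences, -3.85 for SUZ12-/- H1 minus EED-/- H1 and -4.58 for SUZ12-/- H1 minus EZH2-/-/EZH1-/- H1, are a description with no test. CST4 and CST2 were called lower in SUZ12-/- H1. Against EED-/- H1, CST4 fell by 3.46 ± 0.45 (SE, adjusted p = 0.000445) and CST2 by 1.83 ± 0.33 (adjusted p = 0.00291). Against EZH2-/-/EZH1-/- H1, CST4 fell by 4.57 ± 0.45 (adjusted p = 8.35e-05) and CST2 by 2.67 ± 0.33 (adjusted p = 0.000376). Thus 2 of the 6 members tested were called in each of these comparisons, in which 6.12% and 4.46% of all genes were called. CST2 and CST4 passed the filter only through PRC2-null samples. They share sequence with CST1, which is not tested here, and with each other. Their calls are thus neither separate observations nor evidence apart from CST1. Against EED-/- H1, both calls were lost with a pseudocount of 0.1 (adjusted p of 0.0134 for CST4 and 0.0218 for CST2) and in a fit of only the 4 samples compared (0.0142 and 0.0311), and CST2 also lost its call without EED-/- H1 replicate 2 and without SUZ12-/- H1 replicate 1 or replicate 2. Against EZH2-/-/EZH1-/- H1, CST2 lost its call in the fit of 4 samples (adjusted p = 0.0219). CST3 was not called, with lower means in SUZ12-/- H1, and differed by -0.28 ± 0.24 (adjusted p = 0.457) from EED-/- H1 and by -0.51 ± 0.24 (adjusted p = 0.200) from EZH2-/-/EZH1-/- H1.

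Between EZH2-/-/EZH1-/- H1 and EED-/- H1, limma called 0 of the 6 members tested and 0.089% of all genes. CST4 differed by 1.11 ± 0.45 (SE, adjusted p = 0.212) and CST3 by 0.22 ± 0.24 (adjusted p = 0.629). At an unadjusted p under 0.05 were 2 of the 6 members, CST2 and CST4, and 20.1% of all genes. 

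Markers of other cell types moved with the same samples. The summed TPM of the endoderm markers GATA4, GATA6, SOX17 and FOXA2 ranged from 124 to 267 in the PRC2-null samples and from 0.41 to 0.81 in the samples that retain H3K27me3, and that of the pluripotency markers POU5F1, NANOG, SOX2 and LIN28A from 77.5 to 363 and from 3477 to 4455. The sum of CDX2, GATA3, TFAP2A and KRT7, markers of trophoblast and amnion, ranged from 103.5 to 427 and from 11.9 to 14.8. Their part in the cystatin differences was not tested. Of the markers of leukocytes, from which CST7 is known, none of the 4 (PTPRC, SPI1, CD33 and ITGAM) passed the filter, and their sum did not exceed 3.53 TPM in any sample. The squamous markers KRT5, KRT14, TP63 and SFN, fixed for CSTA, summed to between 4.93 and 31.1 TPM in PRC2-null samples and to between 3.24 and 8.40 TPM in samples that retain H3K27me3. Among them TP63 ranged from 0.90 to 11.6 TPM in PRC2-null samples against at most 0.21 TPM. Its fitted difference from WT H1 was 10.1-fold in SUZ12-/- H1 and 4.62-fold in EZH2-/-/EZH1-/- H1. TP63 passed the filter only through PRC2-null samples, so these folds are a description given without a p. KRT5 reached 6.59 TPM in PRC2-null samples and was listed at 0 in the other 6, and KRT14 did not exceed 0.50 TPM in PRC2-null samples.

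The time course followed cystatins in the same cells as EED was withdrawn. With DOX, CST1 stood at 6.81 TPM. It was at 34.4, 41.2 and 100.6 TPM on days 8, 12 and 16, and then at 4915, 6053 and 18692 TPM on days 20, 24 and 28. The step from day 16 to day 20 was 48.8-fold and exceeded every other step, and on day 28 CST1 was the gene with the highest TPM of all 33382, at 1.87% of the total. The day 28 sample lies above both EED-/- H1 samples, which had 2171 and 7977 TPM, and the +DOX sample lies above both WT H1 samples.

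CST4 and CST2 also took their largest step between days 16 and 20. CST4 was between 0.45 and 1.25 TPM from the +DOX sample to day 16 and at 121.2, 125.5 and 464.8 TPM on days 20, 24 and 28. CST2 did not exceed 0.38 TPM up to day 16 and was at 14.9, 8.50 and 15.5 TPM on those days. Unlike CST1, CST4 was no higher on day 16 than with DOX, and CST2 was lower on day 24 than on day 20. CST4 amounted to 2.47%, 2.07% and 2.49% of CST1 on days 20, 24 and 28.

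CST3 rose more gradually and ended in the range of the PRC2-null lines. It was at 61.6 TPM with DOX, at 73.4, 87.2 and 76.8 TPM on days 8, 12 and 16, and at 255.7, 726.7 and 1208 TPM on days 20, 24 and 28. From day 16 on each step was upward, by 3.33-fold, 2.84-fold and 1.66-fold. CSTB stayed between 77.0 and 101.4 TPM over the 7 samples, CST6 did not exceed 3.93 TPM, and CST5, CST7 and CSTA stayed under 2 TPM.

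**Figure D3:**
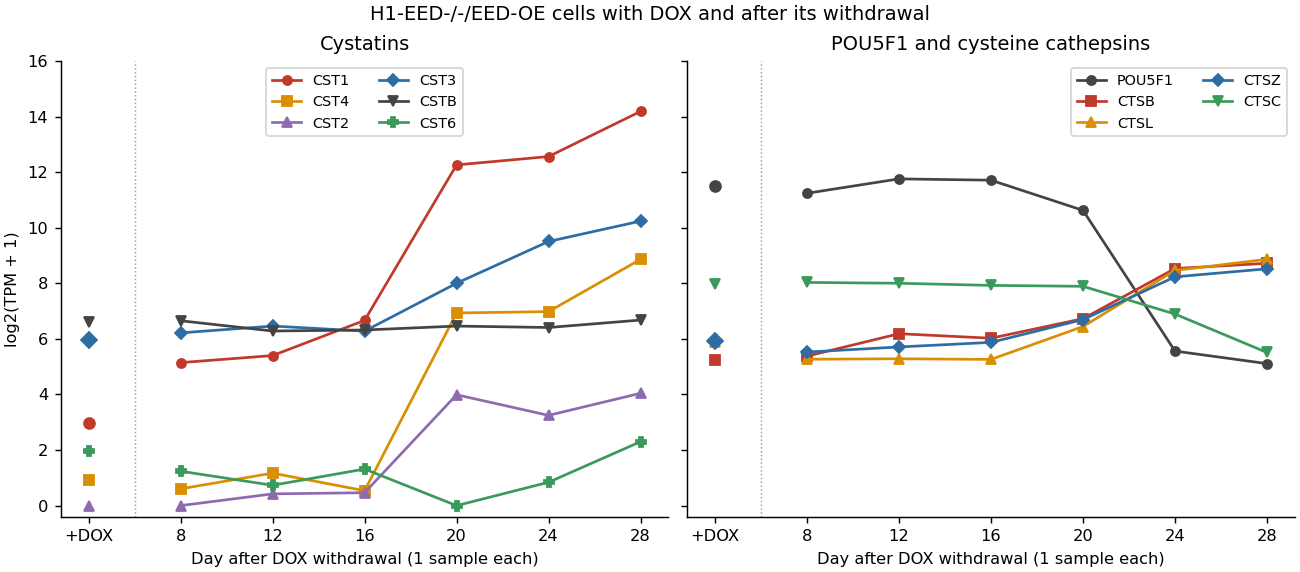
The y axis is log2(TPM + 1) and the x axis the day after DOX withdrawal, with the +DOX sample set apart on the left and 1 sample at each point. On the left, CST1, CST4, CST2 and CST3 take their largest step between day 16 and day 20, and CST3 goes on climbing to day 28, while on the right POU5F1 falls from 1580 TPM on day 20 to 46.2 TPM on day 24 and CTSB, CTSL and CTSZ reach over 300 TPM at day 24.

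A slope against the day was fitted for 17099 genes over the 6 -DOX samples, with 4 residual degrees of freedom, and called by the same thresholds for the change over 20 days. CST3 was the 1 member called of 6 tested other than CST1, with a change of 4.42 ± 0.62 (SE, adjusted p = 0.00911), where 1.36% of all genes were called higher and 0.667% lower. CST4 changed by 9.31 ± 1.55 (adjusted p = 0.0127) and CST2 by 4.60 ± 0.93 (adjusted p = 0.0191), which did not pass. CST3 also lost its call with no filter on low values, with the +DOX sample added as day 0 (adjusted p = 0.0122), after scaling by median ratios (adjusted p = 0.0109), and without day 8, 12, 20, 24 or 28, where the adjusted p ranged from 0.0111 to 0.062. Without day 8, 12, 24 or 28 the fit called 0 of all genes. It called 0.00828% with no filter, 0.269% with median ratios, 1.92% without day 20 and 2.03% with the +DOX sample as day 0. CSTB changed by 0.09 ± 0.27 (adjusted p = 0.833).

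The order of the steps can be read against the loss of POU5F1 (OCT4), the pluripotency factor. POU5F1 was between 2422 and 3468 TPM from the +DOX sample to day 16, at 1580 TPM on day 20, and at 46.2 and 33.6 TPM on days 24 and 28. CST1 was thus at 4915 TPM on a day when POU5F1 was still at 1580 TPM. SOX17, an endoderm factor, stood at 11.6 TPM on day 16 and at 126.3 TPM on day 20, the same interval as the CST1 step. These are 1 sample for each day, and neither which came first within the interval nor the share of cells that carried each transcript was tested.

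The proteases that cystatins inhibit were examined as a list of 12 genes, the 11 cysteine cathepsins CTSB to CTSZ and legumain (LGMN), a lysosomal protease that cystatin C also binds. Of these, 10 passed the filter. Against WT H1, 6 were called higher and 1 lower in EED-/- H1, 7 higher and 0 lower in SUZ12-/- H1, and 6 higher and 1 lower in EZH2-/-/EZH1-/- H1. The shares over all genes were 16.2% higher and 6.09% lower in EED-/- H1. They were 14.5% and 5.21% in SUZ12-/- H1, and 11.6% and 5.66% in EZH2-/-/EZH1-/- H1. CTSO and CTSS passed the filter only with PRC2-null samples. Of the 8 that pass it on the other samples alone, 5 were called higher in each PRC2-null line and 1 was called lower in EED-/- H1 and in EZH2-/-/EZH1-/- H1, with a median difference of 2.62, 1.89 and 2.36 beside 0.36, 0.22 and 0.19 over all genes. In limma's comparison of EZH1-/- H1 and of EZH2-/- H1 with WT H1, 0 were called, and 2 and 1 of the 10 were under an unadjusted p of 0.05, beside 16.0% and 5.81% of all genes. The summed TPM of the list ranged from 1613 to 2847 in the 6 PRC2-null samples and from 659 to 757 in the samples that retain H3K27me3.

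CTSB (cathepsin B) showed the largest difference of the list. It had 23.5 and 21.7 TPM in WT H1, 743 and 676 TPM in EED-/- H1, 443 and 447 TPM in SUZ12-/- H1, and 501 and 359.9 TPM in EZH2-/-/EZH1-/- H1, differences of 4.91, 4.24 and 4.17 (SE 0.20 each, adjusted p of at most 2.56e-07). CTSL (cathepsin L), a close target of cystatin C, had 39.3 and 49.8 TPM in WT H1 and between 207 and 431 TPM in the PRC2-null samples. CTSZ and CTSH were also called higher in all 3 PRC2-null lines, with differences of 2.89 and 2.84 in EED-/- H1. CTSO passed the filter only with PRC2-null samples, so its difference of 3.80 in EED-/- H1 is a description.

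CTSC (cathepsin C), which activates serine proteases of immune cells, went the other way. It had 368.6 and 408.8 TPM in WT H1, 45.5 and 72.6 TPM in EED-/- H1, 141.9 and 147.2 TPM in SUZ12-/- H1, and 81.1 and 69.3 TPM in EZH2-/-/EZH1-/- H1. It fell by 2.73 ± 0.23 (SE, adjusted p = 5.14e-06) in EED-/- H1 and by 2.36 ± 0.23 (adjusted p = 2.09e-05) in EZH2-/-/EZH1-/- H1, and in SUZ12-/- H1 its difference of -1.42 ± 0.23 (adjusted p = 0.000507) was under the 3-fold limit. All 6 PRC2-null samples lay below all 6 other samples, which ranged from 297 to 410.6 TPM.

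Between PRC2-null lines, CTSV (cathepsin V) was the 1 protease of the list called, between SUZ12-/- H1 and EED-/- H1, where 6.12% of all genes were called. It had 188 and 197 TPM in SUZ12-/- H1 and 486 and 970 TPM in EED-/- H1, and in the former it fell by 1.83 ± 0.38 (SE, adjusted p = 0.00692). Between SUZ12-/- H1 and EZH2-/-/EZH1-/- H1 limma called 0 of 10, with 7 under an unadjusted p of 0.05, beside 28.5% of all genes. In the time course, CTSB was at 64.1 TPM on day 16, 104.9 TPM on day 20 and 369 TPM on day 24, so its steepest step came at day 24, 1 sampled interval after that of CST1. Its slope on the day and that of CTSZ were called (3.49 ± 0.49, adjusted p = 0.00911, and 3.34 ± 0.46, adjusted p = 0.0089), 2 of the 9 genes of the list tested. Over all genes, 1.36% were called higher by slope and 0.667% lower.

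**Figure D4:**
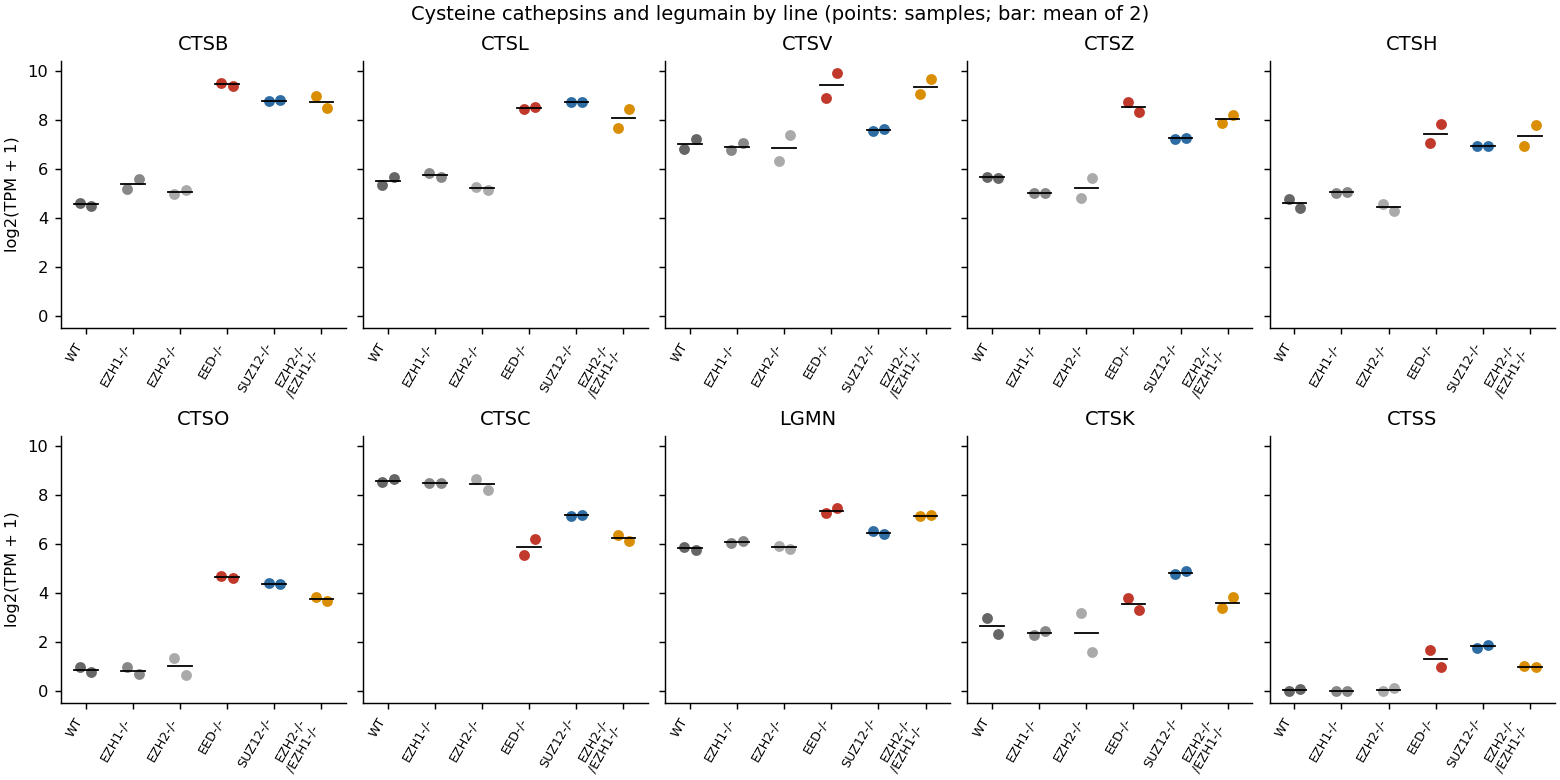
Each panel plots a cysteine cathepsin or legumain in log2(TPM + 1) by line, from WT H1 to EZH2-/-/EZH1-/- H1, with a point for each of 12 samples and a bar at the mean of 2. CTSB, CTSL, CTSZ, CTSH and CTSO are higher in all 3 PRC2-null lines (coloured), and CTSC is lower in all 6 PRC2-null samples than in the other 6.

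Genes around the cystatin cluster were examined to see how far along chromosome 20 the differences extend. The 5 other type 2 cystatins of the cluster, CST8, CST9, CST9L, CST11 and CSTL1, which are known from the reproductive tract, did not exceed 0.77 TPM in any sample, and CST9L was at 0 in all 19. None passed the filter. They lie between CST3 and the gene NAPB, so the cystatins that differed in PRC2-null cells adjoin a run of cystatins listed under 1 TPM in every sample.

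Of 11 genes beyond the cystatins on either side, 8 passed the filter. Called higher against WT H1 were 2 in EED-/- H1, 2 in EZH2-/-/EZH1-/- H1 and 3 in SUZ12-/- H1, and none was lower. Over all genes, 16.2%, 11.6% and 14.5% were called higher in these lines, and 6.09%, 5.66% and 5.21% lower. THBD and CD93 passed the filter only through PRC2-null samples, with at most 0.36 and 0.07 TPM in the samples that retain H3K27me3. Of the other 6, 1 was called higher in SUZ12-/- H1 and 0 in EED-/- H1 or EZH2-/-/EZH1-/- H1 by limma, where 4 and 1 were under an unadjusted p of 0.05 beside 57.4% and 52.0% of all genes, and their median difference was 0.70 in EED-/- H1, 0.13 in EZH2-/-/EZH1-/- H1 and 0.57 in SUZ12-/- H1, beside 0.36, 0.19 and 0.22 over all genes. THBD (thrombomodulin) and CD93, surface receptors of endothelial cells, were called in all 3 lines, also with no filter on low values, and their starts lie at -701.6 and -664.9 kb from that of CST1. THBD had 0.19 and 0.36 TPM in WT H1, 67.7 and 91.7 TPM in EED-/- H1, 11.0 and 11.7 TPM in SUZ12-/- H1, and 28.7 and 20.8 TPM in EZH2-/-/EZH1-/- H1. THBD was lower in SUZ12-/- H1 than in EED-/- H1 (it fell by 2.70 ± 0.27, SE, adjusted p = 8.32e-05), and it stepped from 0.25 TPM on day 16 to 9.06 TPM on day 20. CD93 was still at 0.20 TPM on day 20 and stepped to 12.6 TPM on day 24. NXT1, GZF1 and NAPB, which lie between CD93 and the cystatins, were not called in any of the 3 PRC2-null lines, like most genes. At an unadjusted limma p under 0.05 were GZF1 and NAPB in EED-/- H1, beside 57.4% of all genes. In SUZ12-/- H1 it was NAPB, beside 53.8%, and in EZH2-/-/EZH1-/- H1 none of them, beside 52.0%. Where the differences end along the chromosome was not tested.

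**Figure D5:**
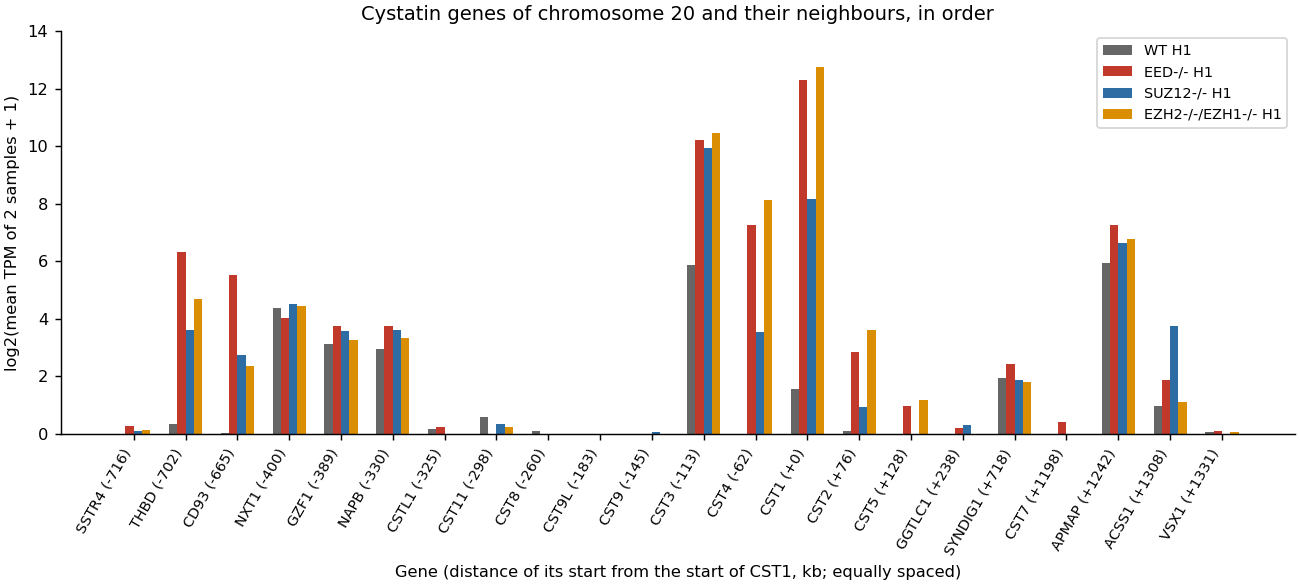
Bars give log2 of the mean TPM of 2 samples + 1 for 22 genes of chromosome 20 in their order, in the 3 PRC2-null lines and WT H1, with the distance of each gene's start from that of CST1 in kb. CST3, CST4, CST1 and CST2 have higher bars in the PRC2-null lines. Between them and THBD and CD93 lie NXT1, GZF1, NAPB and 5 cystatin genes, the latter near 0.

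Promoter sequences in the RefSeq table (GRCh38.p14) were matched for only 2 of the 9 members, CST3 and CST5. These are the outermost of the members that follow each other on the minus strand. CST3 had 47.1 and 67.2 TPM in WT H1, and CST5 was at 0 there. The 250 bases before each RefSeq start are shown on the coding strand with CG pairs in capitals, since CG-rich promoters are where PRC2 is often found in embryonic stem cells. Neither window overlaps an annotated exon. The CST3 window lies inside the span of CST3 given above, chr20:23626706-23638473, since RefSeq and GENCODE place its start differently.
CST3, chr20:23637956-23638205, minus strand: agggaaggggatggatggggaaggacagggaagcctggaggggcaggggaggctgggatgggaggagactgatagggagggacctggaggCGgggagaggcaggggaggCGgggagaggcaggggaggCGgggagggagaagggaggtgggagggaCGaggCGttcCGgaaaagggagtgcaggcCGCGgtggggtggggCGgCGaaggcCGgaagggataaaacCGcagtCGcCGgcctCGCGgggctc
CST5, chr20:23879749-23879998, minus strand: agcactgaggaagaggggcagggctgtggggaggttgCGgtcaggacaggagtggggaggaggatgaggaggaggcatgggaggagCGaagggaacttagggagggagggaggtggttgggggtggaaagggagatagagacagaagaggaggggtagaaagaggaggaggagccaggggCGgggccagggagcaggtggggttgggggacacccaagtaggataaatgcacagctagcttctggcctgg

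The CST3 window holds 16 CG pairs and the CST5 window 3, beside a median of 11 over 35116 promoter windows of the same length. Of those windows, 41.0% hold at least 16 and 77.1% hold at least 3. The count describes the letters of the window, and no binding or histone mark was measured in these files.

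The genes whose pattern was most like that of CST1 were ranked by Pearson's r of log2(TPM + 1) over the 19 samples, among 13325 genes. The samples share lines and cultures and fall mainly into a high and a low set, so r is a description. The 10 highest were PPP1R15A (r = 0.984), KDM6B (0.976), SLCO2A1 (0.973), RHOB (0.972), SOX17 (0.971), PRDM1 (0.971), RTN4RL1 (0.970), RHOC (0.969), HOXB7 (0.968) and RNASE1 (0.967). Among them are KDM6B, a demethylase of H3K27me3, which ranged from 0.66 to 1.71 TPM in samples that retain the mark and from 15.4 to 36.1 TPM in PRC2-null samples, and the endoderm factor SOX17, at 0 to 0.06 TPM and 15.4 to 64.1 TPM. The order within this group is not firm, since only 1 of the 10 was among the 10 highest over the 12 line samples and 0 over the 7 time course samples. CST4 ranked 18th (r = 0.962), CST2 101st (0.938) and CST3 431st (0.891), while CSTB had r = 0.127 and CST6 r = 0.254. CTSC had r = -0.88 over the same samples.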

How the data were processed

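RNA-seq libraries of 19 samples were analysed. Per the labels and methods, the authors quantified reads with RSEM 1.2.4 and Bowtie2 2.2.5 and deposited TPM for 33382 genes per sample. The methods name an mRNA reference of GRCh38, but the sample records also name hg19, so the build used is not certain. TPM sums ranged from 999999.2 to 1000001.0, so read depth is unknown and precision rests on the replicates. TPM are not counts, so the edgeR test named in the study's methods was replaced by limma 3.58.1 in R 4.3.3, keeping its thresholds (FDR 1%, fold change 3). Genes were fitted if 2 or more of the 12 line samples reached 1 TPM, on log2(TPM + 1), with a mean for each of 6 lines, 6 residual degrees of freedom, and eBayes with trend and robust options. A separate fit used the day in the 6 -DOX samples. The script was tested on simulated data. Genes were joined by Ensembl identifier, since 33 names differed between samples' files. Replicate numbers are names in accession order.

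The 9 members and all gene lists were chosen with earlier results of these data known. CST1 was left out of the tests that involve PRC2-null lines or the day, between PRC2-null lines by a choice made after seeing the data. Named were all members, up to 6 genes of a list called in at least 2 PRC2-null lines, genes compared with a member, the targeted genes, and the 10 genes most like CST1. Alternatives were a pseudocount of 0.1, no filter on low values, median-ratio scaling, fits of only the 4 samples compared, leaving out each sample, an FDR of 5% without a fold limit, and the +DOX sample as day 0. The day on which that +DOX sample was collected is not known. Coordinates and transcripts are from GENCODE on GRCh38. Tables and figures were made with pandas 2.3.3, numpy 2.4.6 and matplotlib 3.10.9 in Python 3.11.15.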

Additional observations from a re-analysis of the deposited data

Results flagged for a closer look

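Differences of CST2 and CST4 between lines that all lack H3K27me3 were tested directly in the fit of 12 samples, and 4 of them passed. On the log2(TPM + 1) scale, SUZ12-/- H1 minus EED-/- H1 was -1.83 for CST2 and -3.46 for CST4, and SUZ12-/- H1 minus EZH2-/-/EZH1-/- H1 was -2.67 for CST2 and -4.57 for CST4. Both SUZ12-/- H1 samples lay below all 4 samples of the other PRC2-null lines for each gene. CST2 and CST4 passed the filter only through PRC2-null samples. They share sequence with each other and with CST1, whose level in these lines chose the family. These differences are thus neither separate observations nor evidence apart from CST1. In them the gene lost, the clone and the time since knockout cannot be told apart.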

How the results depend on the processing

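No result for the members reversed under any alternative, and the other gene lists were rerun only with no filter on low values. Of 504 single-gene values recomputed for the members, 469 kept their call, 23 lost it and 12 gained it, and 24 values that were not called either way changed sign. CST3 and CST4 kept their calls against WT H1 in the 3 PRC2-null lines under every alternative run. Between SUZ12-/- H1 and EED-/- H1, 0 cystatins in place of 2 were called with a pseudocount of 0.1, 0 with only the 4 samples compared, and between 1 and 2 when each sample was left out. With only the 4 samples compared, 1 in place of 2 was called between SUZ12-/- H1 and EZH2-/-/EZH1-/- H1, and such a fit has fewer residual degrees of freedom. At an FDR of 5% without a fold limit, 5 in place of 3 cystatins were called in EZH2-/-/EZH1-/- H1 against WT H1 and 3 in place of 1 for the slope on day. The slope gave 0 with no filter on low values, 0 with median-ratio scaling, 0 with the +DOX sample as day 0, and between 0 and 2 when each day was left out; the cause was not tested. Leaving out 1 sample leaves an arm with 1, which is then assumed to vary like the other groups. No paired analysis was possible because the labels name clones and passages and no replicate number ties samples of different lines. Low members are limited by unknown depth, and CST2, CST5, CST7 and CSTA lie near 0 in most samples.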

Other observations

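Other proteins with a cystatin fold stood highest in SUZ12-/- H1. The list held AHSG (fetuin-A) and FETUB, the plasma proteins HRG and KNG1 (kininogen), the carboxypeptidase inhibitor LXN and its relative RARRES1, and 5 of these 6 passed the filter on low values. Against WT H1, limma called 4 higher in SUZ12-/- H1, beside 14.5% of all genes. It called 0 in EED-/- H1 and EZH2-/-/EZH1-/- H1, beside 16.2% and 11.6% of all genes called higher. In EED-/- H1 and EZH2-/-/EZH1-/- H1, 3 and 1 of the 5 were under an unadjusted p of 0.05, beside 57.4% and 52.0% of all genes. AHSG, HRG, KNG1 and RARRES1 passed the filter only with PRC2-null samples, so these counts say nothing for the list as a whole. In direct comparison, 3 of the 5 were called higher in SUZ12-/- H1 than in EED-/- H1 and 4 were called higher than in EZH2-/-/EZH1-/- H1. In these comparisons 6.12% and 4.46% of all genes were called in either direction. The genes described here were chosen after their values were seen. AHSG, a secreted liver protein, had 672.7 and 699.6 TPM in SUZ12-/- H1, 1.08 and 12.4 TPM in EED-/- H1, 0 and 0.30 TPM in EZH2-/-/EZH1-/- H1, and 0.65 and 0.82 TPM in WT H1. The difference between SUZ12-/- H1 and EED-/- H1 was 7.02 ± 0.63 (SE), a description given without a p. KNG1 had 12.3 and 11.1 TPM and RARRES1 29.4 and 30.6 TPM in SUZ12-/- H1, and in all other samples of the lines they did not exceed 0.86 and 2.15 TPM. LXN had 51.9 and 51.4 TPM in SUZ12-/- H1 and 12.1 and 9.31 TPM in WT H1. The SUZ12-/- H1 samples, in which CST1, CST2 and CST4 were the lowest of the PRC2-null lines, were thus the highest for these 4 genes. AHSG did not exceed 0.42 TPM in any H1-EED-/-/EED-OE sample.

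ACSS1, an acetyl-CoA synthetase gene 1308 kb from the start of CST1, was the 1 neighbour of the cluster called in SUZ12-/- H1 alone (12.5 and 12.3 TPM against 0.81 and 1.07 TPM in WT H1), and it too was chosen after its values were seen. Its difference from EED-/- H1 was 1.90 ± 0.29 (SE, limma adjusted p = 0.0013).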
